A study of Mus musculus with 34 samples.

Results

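The collagens are the proteins of the extracellular matrix that carry the collagen triple helix, and their genes are described here across 28 mouse liver tumors driven by MYC and 6 livers of MYC-carrying mice. The members are every protein-coding gene whose symbol has the form Col, a number, a and a number, taken by name and not by level. There are 44 of them among the 46528 genes of the mixed-strain tumor table, 28 among the 16140 genes of the FVB tumor table and 27 among the 14074 genes of the Rag1-/- liver table, and 25 are in all 3. Over the 3 tables together, 44 of 47051 genes are members.

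RNA sequencing was done on frozen tissue of mice carrying LAP-tta and TRE-MYC, in which taking away doxycycline water turns on MYC and starts tumors. The LAP and albumin promoters, which drive the transgene and the Cre recombinase, are active in liver epithelium. In the mixed-strain experiment (C57/B6, 129 and FVB background, about 90 days old), 8 WT tumors carried 2 floxed Arid1a alleles and no Cre (Arid1a fl/fl), and 8 Het tumors were Arid1a fl/+ with Alb-cre. In the FVB experiment there were 4 WT tumors (Arid1a fl/fl, no Cre, about 55 days), 4 Het tumors (Arid1a fl/+;Alb-cre, about 70 days) and 4 Homo tumors (Arid1a fl/fl;Alb-cre, about 100 days). Tumors were taken at death, so age goes with genotype in the FVB experiment, and Cre goes with every comparison against WT; these cannot be told apart from the loss of Arid1a. The third experiment used tissue of Rag1-/- FVB mice with the MYC transgenes and unfloxed Arid1a (about 42 days), which lack mature lymphocytes. Of these, 3 were taken 14 days after an adenovirus carrying human ARID1A (ad-ARID1A) and 3 after one carrying Cre (ad-Cre), so Cre is in the control group only. Labels of these 6 samples conflict: the tissue label reads liver, while the source name, the same for all 34 samples, names tumor tissue. They are called livers here by the tissue label, and every contrast of livers with tumors rests on it. The descriptions of the 3 ad-ARID1A samples point to column names with adcre, which the table does not hold under those numbers; its adArid columns of the same numbers were taken, as the sample titles say, and the mouse Arid1a levels given below overlap and so do not check this. The label of each sample gives its genotype; the shared treatment text writes the Het genotype with 2 floxed alleles, and the sample's own label was used. Nothing in the labels says that the replicates of a group came from separate mice, although the FVB tumors carry separate tumor numbers. Median variance between libraries of a group was 2.79 to 30.5 times that of read sampling over all pairs, so no pair matched like 1 library deposited a second time. A p-value rests on this spread between libraries, in which technical and biological parts cannot be told apart.

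Fibrillar collagens (types I, III and V here) form the rope-like fibrils of scar and interstitial matrix; in liver they come mainly from activated stellate cells and portal fibroblasts. Basement membrane collagens include type IV, which builds the sheet-like network under epithelium and around vessels, and types XV and XVIII, which carry sugar chains and sit at the edge of that sheet. Liver sinusoids normally lack a complete basement membrane, and hepatocytes are a known source of type XVIII. Other classes are the beaded filaments of type VI, the fibril-associated collagens (FACIT) that coat fibrils, short-chain networks, anchoring fibrils and transmembrane collagens.

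The mouse type IV pair Col4a1 and Col4a2, whose protein chains assemble as a heterotrimer, lies head to head on chromosome 8 (GRCm38): Col4a1 at chr8:11198423-11312826 on the minus strand and Col4a2 at chr8:11312805-11449287 on the plus strand. Their annotated starts are 21 bases apart, and their RefSeq promoter windows (250 bases before to 50 after the start, GRCm38.p6) share 78 bases. Those shared bases are in capitals below, each window read 5′ to 3′ on its own gene's strand, because the pair is compared as a ratio further on.
Col4a1, chr8:11312777-11313076, minus strand: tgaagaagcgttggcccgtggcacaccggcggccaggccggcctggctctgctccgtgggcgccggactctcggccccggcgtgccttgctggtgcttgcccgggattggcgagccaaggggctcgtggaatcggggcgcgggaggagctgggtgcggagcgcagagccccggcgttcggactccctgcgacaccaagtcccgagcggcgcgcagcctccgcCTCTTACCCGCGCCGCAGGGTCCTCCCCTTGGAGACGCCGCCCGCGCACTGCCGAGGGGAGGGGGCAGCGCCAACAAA
Col4a2, chr8:11312555-11312854, plus strand: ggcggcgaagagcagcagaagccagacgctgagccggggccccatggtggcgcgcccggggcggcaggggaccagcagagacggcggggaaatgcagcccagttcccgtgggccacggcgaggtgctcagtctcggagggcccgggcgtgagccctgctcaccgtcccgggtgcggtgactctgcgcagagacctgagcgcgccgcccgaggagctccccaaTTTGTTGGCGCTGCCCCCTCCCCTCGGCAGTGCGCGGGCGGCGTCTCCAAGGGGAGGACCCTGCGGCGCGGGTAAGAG
The shared stretch holds 1 GC box (GGGCGG on either strand) and no CCAAT box (CCAAT) or TATA box (TATAAA). The fibrillar Col1a2 and Col3a1 windows are shown for contrast, since the levels of both genes followed Col1a1 across tumors, with CCAAT, GC and TATA boxes on either strand in capitals.
Col1a2, chr6:4505368-4505667, plus strand: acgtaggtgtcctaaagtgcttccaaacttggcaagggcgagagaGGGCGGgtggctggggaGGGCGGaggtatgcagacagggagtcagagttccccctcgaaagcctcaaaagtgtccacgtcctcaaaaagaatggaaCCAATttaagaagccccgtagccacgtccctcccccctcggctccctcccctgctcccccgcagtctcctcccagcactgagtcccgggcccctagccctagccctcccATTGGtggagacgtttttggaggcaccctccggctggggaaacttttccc
Col3a1, chr1:45311288-45311587, plus strand: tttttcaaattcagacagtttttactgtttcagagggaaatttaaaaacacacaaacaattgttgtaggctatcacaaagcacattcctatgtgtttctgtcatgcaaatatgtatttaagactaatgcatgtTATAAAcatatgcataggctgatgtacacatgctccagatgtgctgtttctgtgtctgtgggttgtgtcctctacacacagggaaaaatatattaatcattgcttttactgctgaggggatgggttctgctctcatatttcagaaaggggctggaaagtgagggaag
The Col1a2 window holds 2 CCAAT boxes and 2 GC boxes, and its GC content is 61.0%. The Col3a1 window holds 1 TATAAA match and neither of the others, at 37.7% GC, so these windows differ in the letters searched. Col3a1 (chr1:45311538-45349706, plus strand) has Col5a2 (chr1:45374321-45503282, minus strand) as its neighbour. Of the 44 collagens, 35 had a window, and the RefSeq table gave 38 windows for them. A GC box was in 60.5% of these windows against 35.7% of all 32851 windows of the same length, a CCAAT box in 34.2% against 37.4%, and TATAAA in 13.2% against 13.6%. The motif matches printed here do not overlap each other, and a match is a description of the letters only.

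Depth was estimated from the step between low values. Mixed-strain tumors had 2.28 M to 5.28 M counted reads, FVB tumors 6.64 M to 12.03 M, and livers 8.72 M to 10.6 M. Arid1a, the targeted gene, had a mean log2 level of 8.48 ± 0.21 (SD, n = 8) in mixed-strain WT and 8.07 ± 0.13 (n = 8) in Het tumors. Among FVB tumors its mean was 8.08 ± 0.25 (WT), 7.76 ± 0.31 (Het) and 7.74 ± 0.23 (Homo) (SD, n = 4 each), with overlapping groups, and whole-gene counts include exons outside a floxed part. In the livers it was 6.84 ± 0.02 with ad-Cre and 6.99 ± 0.22 with ad-ARID1A (SD, n = 3 each), and the virus carries the human gene. On principal components, WT 2 and Het 5 stood apart among the mixed-strain tumors, and WT 1 and WT 2 among the FVB tumors. The hepatocyte marker list (10 genes, all listed) summed to 3130 to 15200 CPM (counts per 1 M counted reads) over the tumors and 77500 to 94700 CPM over the livers, with no marker at 0.

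Per kilobase of transcript, the most abundant collagen RNA in all 7 groups was Col18a1, whose C-terminal fragment is endostatin. It stood at 257 CPM per kb in ad-Cre and 257 CPM per kb in ad-ARID1A livers, 197 in mixed-strain WT tumors, 136 in mixed-strain Het tumors, and 80.2, 109 and 97.7 in FVB WT, Het and Homo tumors (group means). As a share of the summed level per kb of the 25 collagens in all tables, Col18a1 was 61.8% to 76.6% of a liver (6 libraries, median 68.8%) and 21.6% to 59.4% of a tumor (28 libraries, median 30.6%). No tumor reached the lowest liver. Col4a1 and Col4a2 together were 4.46% to 6.81% of the collagen of a liver and 18.3% to 46.9% of that of a tumor, again without overlap. The fibrillar share was 7.24% to 14.9% in livers and 7.64% to 37.5% in tumors, and these ranges overlapped. Col27a1, a fibril-forming collagen known from cartilage, and Col14a1, a FACIT collagen, took ranks 2 and 4 per kb in ad-Cre livers, ahead of Col4a1 at rank 5; in every tumor group Col4a1 had rank 2. Livers and tumors sit in tables normalized separately and differ in age, Rag1 genotype and virus, so no test was made between them. The hepatocyte marker sums given above were higher in livers than in tumors, as was the Col18a1 share. Median sums were 7380 CPM in mixed-strain WT and 6740 CPM in mixed-strain Het tumors, with mean Col18a1 shares of 39.9% and 32.1%. In FVB WT, Het and Homo tumors the median sums were 11200, 9800 and 11400 CPM. The mean Col18a1 shares there were 24.1%, 29.1% and 35.2%. The part of these markers in the share was not tested.

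**Figure D1:**
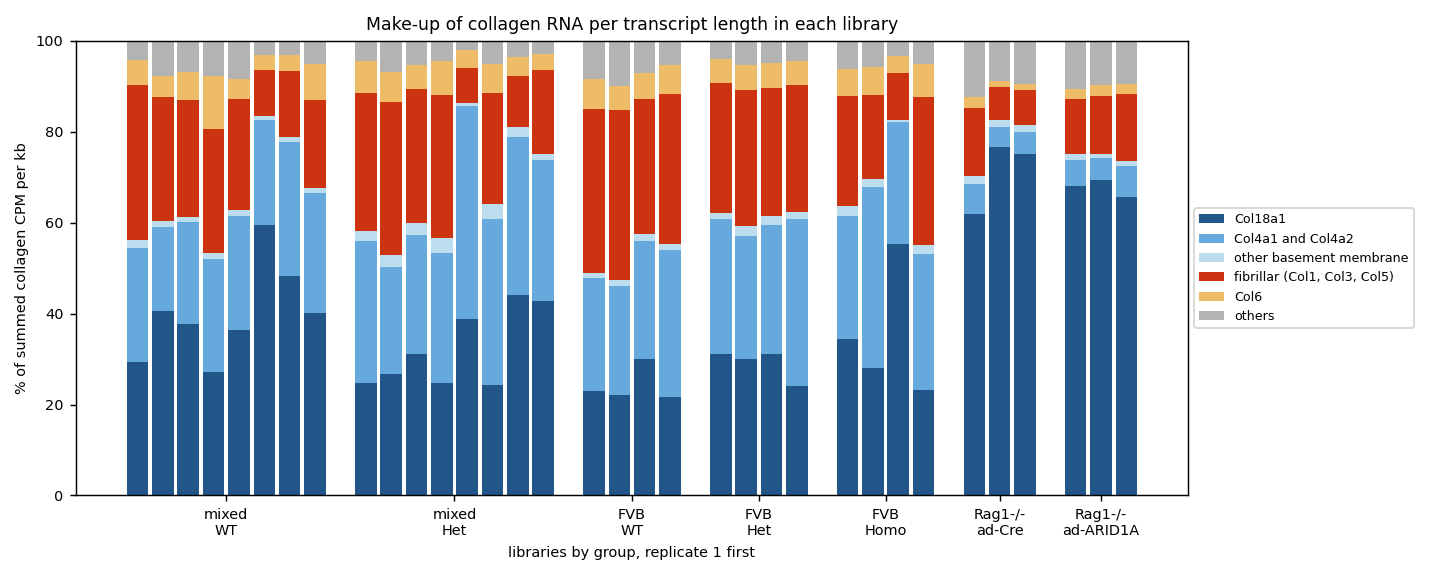
Each bar is 1 library, and the segments are the percentages of the summed CPM per kb of transcript that each collagen class took, over the 25 collagens in all 3 tables. Col18a1 took 61.8% to 76.6% of a liver and 21.6% to 59.4% of a tumor, while Col4a1 and Col4a2 took 4.46% to 6.81% of a liver and 18.3% to 46.9% of a tumor.

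The type IV pair kept a narrow ratio. Col4a1 stood at 1.57 ± 0.15 times Col4a2 per kb in mixed-strain WT and 1.68 ± 0.13 times in mixed-strain Het tumors (SD, n = 8 each), and at 1.72 ± 0.20, 1.85 ± 0.06 and 1.80 ± 0.06 times in FVB WT, Het and Homo tumors (SD, n = 4 each). In livers it was 1.20 ± 0.13 with ad-Cre and 1.19 ± 0.04 with ad-ARID1A (SD, n = 3 each). No liver, at 1.06 to 1.32, reached the lowest tumor, at 1.33. Type I collagen is made of 2 chains from Col1a1 for each chain from Col1a2, and Col1a1 RNA stood at 0.90 to 1.6 times Col1a2 per kb over the tumors and 0.79 to 1.02 times over the livers. Col3a1, the chain of type III collagen, stood at 2.70 to 4.01 times Col1a1 in livers and 0.32 to 1.78 times in tumors.

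In the mixed-strain tumors 31 of the 44 collagens were tested, and no collagen passed an adjusted p under 0.05 between Het and WT (limma, Benjamini-Hochberg over 17552 genes, of which 0.16% passed). Of the 13 not tested, whose mean was under 0.5 CPM (the highest 0.414 CPM), Col19a1 was at 0 in all 16 libraries, and the others include the cartilage chains Col2a1, Col9a1 and Col9a2. At an unadjusted p under 0.05 there were 7 collagens (22.6% of 31, against 15.8% of all genes), 1 higher and 6 lower in Het. No collagen had groups without overlap, against 0.137% of all genes. The fibrillar class had 5 of 6 members lower with a median log2 fold change of -0.26, and the basement membrane class had 4 of 7 higher with a median of 0.03, beside 0.05 over all genes tested. Without WT 2 and Het 5 the fibrillar median was -0.03. Leaving out 1 tumor moved it to -0.10 (Het 7), -0.12 (WT 1), -0.14 (Het 5), -0.15 (WT 4) and -0.42 (WT 6), and without Het 5 the log2 fold change of Col1a2 turned from -0.14 to 0.025. The basement membrane median ran from -0.11 to 0.15 when single tumors were left out. Over 24 alternatives 5 to 9 collagens had an unadjusted p under 0.05.

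Among fibrillar genes, Col5a3, which encodes the α3 chain of type V collagen, had log2(CPM + 0.5) levels from 1.6 to 3.14 with a median of 2.42 in WT. In Het they ran from 2.75 to 4.19 with a median of 3.91. Mean levels of Col5a3 were 5.22 CPM in WT and 13.3 CPM in Het, so this gene was low in level as well. The groups overlapped only through the Het 8 tumor, at 2.75, which lay below the 3 highest WT tumors. The log2 fold change was 1.31 ± 0.28 (SE, 8 against 8), the lowest p of any collagen here, and limma's adjusted p was 0.0756. It passed when 1 of 4 single tumors was left out (Het 2, Het 7, Het 8 or WT 7, adjusted p 0.0332 to 0.046) and with array weights (0.0131). The share of all genes that passed was then 0.785%, 0.37%, 0.143%, 0.273% and 0.575%, in that order, against 0.16% with all tumors. Over 24 alternatives its adjusted p ran from 0.0131 to 0.164.

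The abundant fibrillar chains varied widely within both genotypes. Col1a1 ran from 6.27 to 8.80 (median 7.46) in WT and from 5.93 to 8.36 (median 7.53) in Het. Col1a2 ran from 5.69 to 7.98 (median 6.92) in WT and from 5.80 to 7.94 (median 6.99) in Het. Both type I chains covered nearly the same range in the 2 genotypes, with log2 fold changes of -0.30 ± 0.38 and -0.14 ± 0.36 (SE). Col3a1 ran from 5.73 to 8.74 (median 7.87) in WT and from 4.38 to 8.40 (median 7.48) in Het; 1 tumor in each genotype, WT 6 and Het 5, lay well below the rest. Col5a1 and Col5a2, the chains of the main type V trimer, had medians of 5.26 and 4.99 in WT and 4.89 and 4.80 in Het, with ranges of 4.01 to 6.35 and 4.07 to 6.08 in WT and of 4.11 to 5.85 and 3.68 to 5.62 in Het. Every fibrillar gene thus had overlapping groups.

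Among basement membrane genes, Col18a1 ran from 9.46 to 10.35 (median 9.71) in WT and from 8.41 to 9.76 (median 9.46) in Het. It was lower in Het by the mean, with a log2 fold change of -0.56 ± 0.18 (SE), and limma's adjusted p was 0.18; the highest Het tumors lay inside the WT range. Col4a1 ran from 8.47 to 9.29 (median 8.89) in WT and from 8.81 to 9.69 (median 9.07) in Het, a log2 fold change of 0.19 ± 0.14 (SE). Col4a2 ran from 7.67 to 8.71 in WT and from 7.94 to 9.01 in Het, with a median of 8.27 in both. Col15a1 ran from 3.91 to 5.60 (median 4.72) in WT and from 3.58 to 6.18 (median 5.68) in Het, where Het 5 was the lowest; the log2 fold change was 0.63 ± 0.33 (SE). Col18a1 thus had the opposite sign to Col4a1 and Col15a1, and none of them passed the test.

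Of the other collagens at an unadjusted p under 0.05, Col13a1, Col17a1, Col11a1 and Col6a5 were low in level and Col14a1 was not. Col13a1, a transmembrane collagen, ran from -0.35 to 2.94 (median 0.83) in WT and from -1, which is 0 reads, to 0.24 (median -0.41) in Het, with 3 Het tumors at 0. Its log2 fold change was -1.5 ± 0.39 (SE) with a limma adjusted p of 0.121. Col17a1, the transmembrane collagen of hemidesmosomes, ran from 0.33 to 1.69 in WT and from -1 to 1.06 in Het (-0.86 ± 0.29). Col11a1, a cartilage-type fibril chain, ran from 0.20 to 3.92 in WT and from -1 to 1.69 in Het (-1.6 ± 0.55). Col6a5 of the beaded filaments had medians of 2.86 in WT and 0.94 in Het (-1.28 ± 0.49), and Col14a1 ran from 4.17 to 7.82 in WT and from 2.94 to 6.78 in Het (-1.22 ± 0.54). In all 5 genes the groups overlapped. Folds of genes this close to 0 depend on the pseudocount: with 0.1 in place of 0.5, that of Col13a1 was -2.51. Col6a1, also of the beaded filaments, ran from 4.09 to 6.88 (median 5.21) in WT and from 3.87 to 5.44 (median 4.95) in Het.

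**Figure D2:**
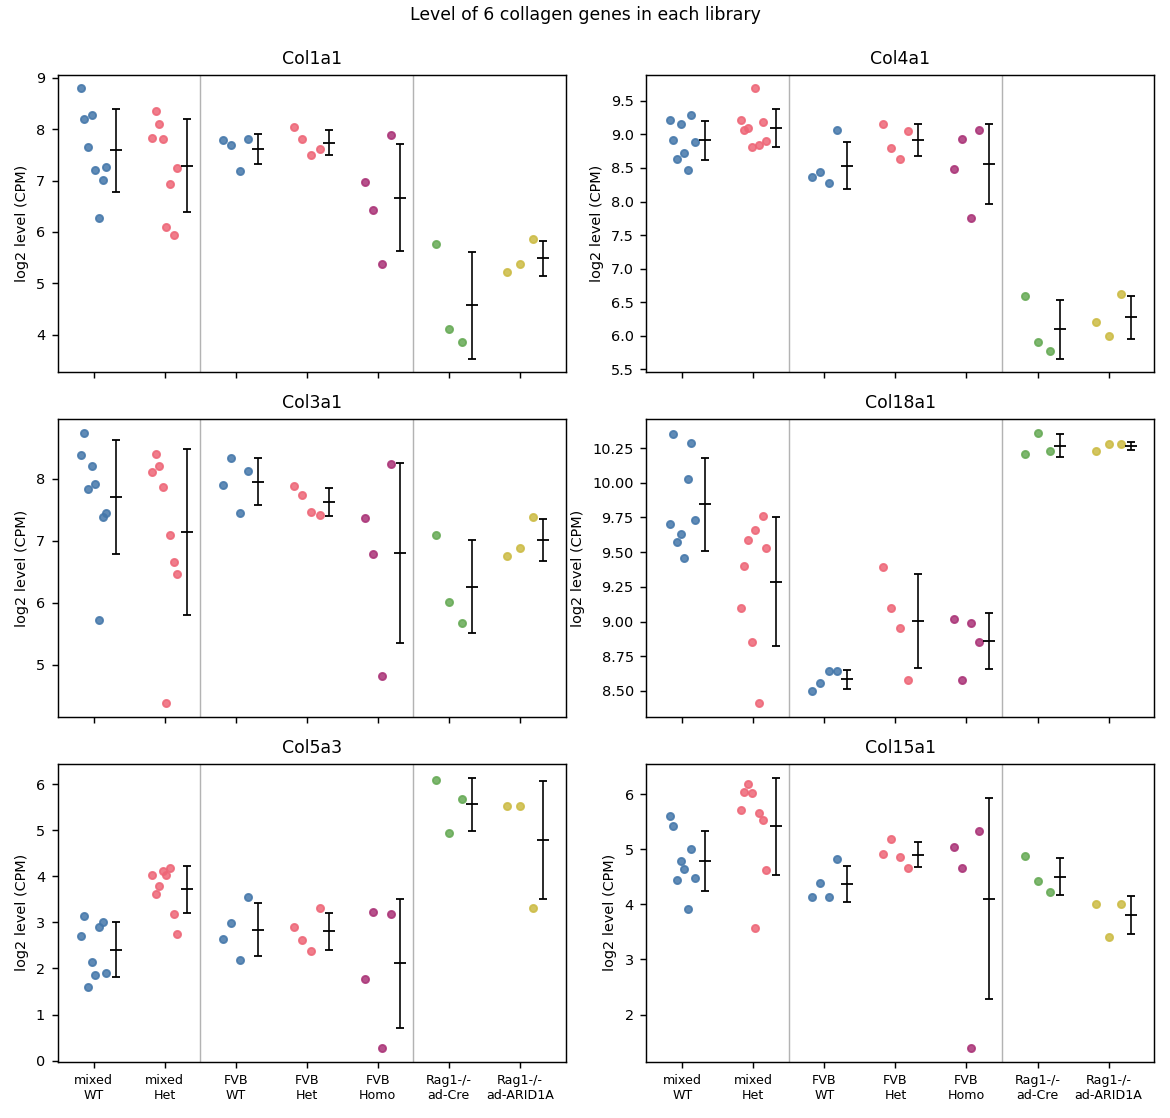
Points are libraries, at the log2(CPM + 0.5) level in the mixed-strain tumors and the deposited log2 CPM level in the FVB and Rag1-/- tables; the bar beside each group is the mean ± SD, and vertical lines part the tables. Col5a3 was the collagen with the lowest p in mixed-strain Het tumors, and Homo 3 was the lowest FVB library for Col1a1, Col3a1, Col5a3 and Col15a1.

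Across the 16 mixed-strain tumors the fibrillar genes Col1a2, Col5a2 and Col3a1 followed Col1a1; Col5a1 and Col5a3 were not among the relations computed. With Col1a1, Pearson's r was 0.974 for Col1a2, 0.928 for Col5a2 and 0.85 for Col3a1, with Spearman's rho of 0.971, 0.945 and 0.907. Each had a two-sided permutation p of 1e-05, the smallest 100000 resamples can give, and 3.3e-05 after Benjamini-Hochberg adjustment over the 10 relations computed. They held without the 2 tumors farthest from the median of Col1a1, Het 5 and Het 7 (r of 0.971, 0.936 and 0.869), and within WT (0.979, 0.935 and 0.878) and within Het (0.977, 0.921 and 0.836). Col6a1 followed less closely (r = 0.613, rho = 0.748, permutation p 0.01 and 0.0013, adjusted 0.025 and 0.0034).

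The basement membrane genes differed among themselves in this respect. For Col15a1 r was 0.556 and rho 0.503 (permutation p 0.026 and 0.05, adjusted 0.052 and 0.099). For Col4a1 r was -0.029 and rho 0.115 (permutation p 0.91 and 0.68), and for Col4a2 they were 0.047 and 0.143 (0.86 and 0.59). Without Het 5 and Het 7 these became r of 0.59 and 0.569, so the pooled values for the type IV pair rest on those 2 tumors. For Col18a1 r was -0.07 and rho -0.153 (permutation p 0.8 and 0.57), and 0.009 without the same tumors. Lrat, a stellate cell gene of vitamin A storage, gave r = 0.376 and rho = 0.421 (permutation p 0.15 and 0.11). Pecam1, an endothelial gene, gave r = -0.189 and rho = 0.046 (permutation p 0.48 and 0.87), and r = 0.567 without those tumors. Within WT and Het, r with Col1a1 was 0.584 and -0.481 for Col4a1, 0.808 and 0.664 for Col15a1, and -0.182 and -0.251 for Col18a1.

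**Figure D3:**
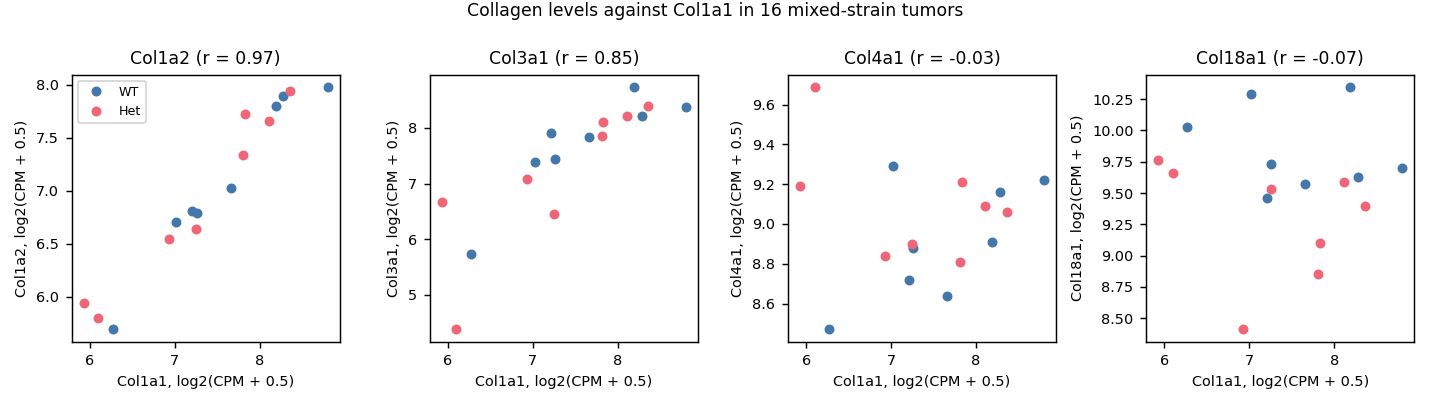
Each point is 1 of the 16 mixed-strain tumors, at its log2(CPM + 0.5) level of Col1a1 and of the second gene, with r over all 16. Col1a2 (r = 0.974) and Col3a1 (0.85) lay along a line with Col1a1, while Col4a1 (-0.029) and Col18a1 (-0.07) did not, and the Het tumor high in Col4a1 is Het 5.

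FVB Het tumors had Col1a1 and Col1a2 levels close to those of WT tumors, with log2 fold changes of 0.12 ± 0.38 and 0.03 ± 0.38 (SE). Values of this table and of the liver table are log2 CPM listed at 0 where they are at or below 1 CPM, so fold changes of low genes are understated; strand was not given for the counting, so an overlapping antisense gene cannot be told apart. No collagen of 28 passed between FVB Het and WT (limma, Benjamini-Hochberg over 16140 genes, of which 0.0248% passed). At an unadjusted p under 0.05 there were 3 (10.7%, against 14.2% of all genes), and no collagen had groups without overlap, against 6.88% of all genes. All 6 basement membrane members had higher means in Het, with a median log2 fold change of 0.32, while 3 of 6 fibrillar members were higher and 3 lower, with a median of 0.00 (0.02 over all genes). Leaving out single tumors gave fibrillar medians of -0.19 to 0.06 and basement membrane medians of 0.286 to 0.417. Col4a5, a type IV gene of low level, turned from 0.165 to -0.039 without Het 2, -0.059 without Het 3 and -0.036 without WT 1. The 3 collagens at an unadjusted p under 0.05 became 5 without Het 4, 6 without Homo 3 and 5 without Homo 4. They became 0 when WT 1 and WT 2 were both left out, and were 0 to 7 over 19 alternatives.

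Col18a1 stood at 8.50, 8.56, 8.64 and 8.64 in WT and at 9.39, 9.10, 8.95 and 8.58 in Het (log2 CPM), so that 3 of 4 Het tumors lay above all WT tumors. Its log2 fold change was 0.42 ± 0.15 (SE), with a limma adjusted p of 0.239. In the mixed-strain tumors the sign was the opposite, as given above; the difference between the 2 experiments was not tested. Col4a1 stood at 8.36, 8.44, 8.28 and 9.06 in WT and at 9.16, 8.80, 8.64 and 9.05 in Het. Col4a2 was at 7.70, 7.78, 7.30 and 8.13 in WT and at 8.28, 7.86, 7.75 and 8.07 in Het. For both type IV genes WT 4 lay within the Het range. Col15a1 stood at 4.14, 4.39, 4.14 and 4.83 in WT and at 4.91, 5.19, 4.86 and 4.66 in Het, where WT 4 again lay within the Het range. The log2 fold changes of these 3 genes were 0.38 ± 0.25, 0.26 ± 0.24 and 0.53 ± 0.63 (SE). The SE of Col15a1 holds the wide spread of the Homo tumors, whose SD was 1.831, against 0.325 in WT and 0.219 in Het.

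Col12a1, a FACIT collagen, stood at 4.80, 4.59, 4.29 and 4.05 in WT and at 4.25, 3.82, 3.58 and 3.37 in Het, a log2 fold change of -0.68 ± 0.22 (SE) and a limma adjusted p of 0.183. The Het 1 tumor lay among the WT tumors. Col14a1, of the same class, was at 6.54, 7.0, 5.90 and 6.20 in WT and at 5.98, 5.83, 5.46 and 5.15 in Het (-0.81 ± 0.42). Only Het 1 overlapped the WT range of Col14a1. Col11a2, a cartilage-type chain, was at 1.99, 2.48, 2.31 and 1.91 in WT and at 0.58, 0.79, 0.20 and 2.29 in Het (-1.21 ± 0.42); without Het 4, the tumor inside the WT range, its limma adjusted p was 0.0438, and 1.12% of all genes passed. Col8a1, of the short-chain networks, was at 1.39, 2.46, 2.66 and 2.29 in WT and at 2.84, 3.51, 3.42 and 2.59 in Het (0.89 ± 0.42), where Het 4 lay below the highest WT tumor. With array weights Col12a1, Col18a1, Col8a1 and Col11a2 passed, where 14.2% of all genes did.

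FVB Homo tumors (Arid1a fl/fl;Alb-cre) had lower mean levels of all 6 fibrillar genes than WT tumors, which carry the same floxed alleles without Alb-cre, and the spread among the 4 Homo tumors was wide. The WT tumors are those of the comparison with Het. No collagen of 28 passed between FVB Homo and WT (limma, 16140 genes, of which 0.0434% passed). At an unadjusted p under 0.05 there were 6, all lower (21.4%, against 10% of all genes), and no collagen had groups without overlap, against 4.07% of all genes. The fibrillar median log2 fold change was -0.91 and the basement membrane median -0.02, beside -0.02 over all genes. Without Homo 3 the fibrillar median was -0.46, and without Homo 4 it was -1.30. The basement membrane median ran from -0.18 without Homo 4 to 0.22 without Homo 3. The 6 collagens at an unadjusted p under 0.05 became 2 without WT 1, 3 without WT 2 and 3 without WT 4. They became 0 when WT 1 and WT 2 were both left out, and were 0 to 9 over 19 alternatives.

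Col1a1 stood at 7.79, 7.69, 7.18 and 7.81 in WT and at 6.97, 6.43, 5.38 and 7.89 in Homo. Col1a2 stood at 7.24, 7.30, 6.65 and 7.18 in WT and at 6.63, 6.02, 4.89 and 7.36 in Homo. For both type I chains 3 of 4 Homo tumors lay below all WT tumors, with Homo 3 the lowest, and Homo 4 lay above them all. The log2 fold changes were -0.95 ± 0.38 and -0.87 ± 0.38 (SE), with limma adjusted p of 0.417 and 0.468. Col3a1 was at 7.90, 8.34, 7.45 and 8.13 in WT and at 7.37, 6.79, 4.82 and 8.24 in Homo (-1.15 ± 0.51). Col5a1 was at 5.45, 5.68, 4.85 and 5.51 in WT and at 4.45, 4.06, 2.93 and 5.45 in Homo (-1.15 ± 0.39, limma adjusted p = 0.32). Col5a2 was at 4.68, 4.94, 4.54 and 4.72 in WT and at 4.56, 3.95, 2.91 and 4.96 in Homo (-0.63 ± 0.34). Col5a3 was at 2.65, 2.98, 2.18 and 3.56 in WT, at 2.90, 2.62, 2.38 and 3.32 in Het and at 1.77, 3.23, 0.27 and 3.18 in Homo. The order of the Homo tumors was the same in Col1a1, Col1a2, Col3a1, Col5a1 and Col5a2: Homo 4 highest, then Homo 1, Homo 2 and Homo 3.

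The basement membrane genes had no common direction between Homo and WT. Col18a1 was at 9.02, 8.58, 8.99 and 8.85 in Homo (0.28 ± 0.15 against WT), narrower than any fibrillar gene there. Col4a1 was at 8.49, 8.93, 7.75 and 9.06 and Col4a2 at 7.64, 7.99, 6.91 and 8.16 in Homo, with log2 fold changes of 0.02 ± 0.25 and -0.05 ± 0.24. Col15a1 was at 5.04, 4.66, 1.39 and 5.33 in Homo, so that Homo 1 and Homo 4 lay above all WT tumors, Homo 2 among them and Homo 3 far below; the fold change was -0.27 ± 0.63 and became 0.64 without Homo 3. Homo 3 was the lowest of all 12 FVB tumors for Col1a1, Col3a1, Col4a1 and Col15a1 but not for Col18a1. The FACIT genes Col14a1, at 5.51, 5.20, 3.75 and 6.33, and Col12a1, at 3.82, 4.08, 3.58 and 3.95 in Homo, had fold changes of -1.21 ± 0.42 and -0.58 ± 0.22 against WT. Col6a1 was at 5.09, 4.4, 4.57 and 5.06 in WT, at 4.85, 4.66, 4.35 and 4.48 in Het and at 4.14, 4.71, 3.49 and 5.33 in Homo, with every pair of groups overlapping.

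As a share of collagen per kb, the fibrillar class was 34.1% ± 3.42 in FVB WT, 28.7% ± 0.885 in Het and 21.4% ± 9.41 in Homo tumors (SD, n = 4 each), with Homo libraries between 10.4% and 32.7%. The basement membrane share was 52.3% ± 4.90, 61.3% ± 1.44 and 67.7% ± 11.6. In the mixed-strain tumors the fibrillar share was 22.9% ± 7.73 in WT and 23.3% ± 9.82 in Het (SD, n = 8 each), nearly the same mean with wide spreads.

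Between FVB Homo and Het tumors, which both carry Alb-cre, all 6 fibrillar members again had lower means in Homo, with a median log2 fold change of -0.76, and 5 of 6 basement membrane members were lower, with a median of -0.33 (-0.04 over all genes). The Homo tumors are those of the comparison with WT. No collagen passed, and 0% of the 16140 genes did (limma); at an unadjusted p under 0.05 there were 623 genes (3.86%) and 4 of 28 collagens (14.3%), all lower. Groups without overlap were seen for 2.67% of genes and for no collagen. Col1a1 stood at 8.05, 7.80, 7.49 and 7.62 in Het, and Col1a2 at 7.43, 7.25, 7.0 and 6.82, with log2 fold changes of -1.07 ± 0.38 and -0.90 ± 0.38 (SE). Col8a1, at 2.4, 2.09, 0.69 and 2.77 in Homo, had -1.10 ± 0.42. Col16a1, a FACIT collagen, was at 2.25, 2.98, 1.91 and 1.88 in Het and at 1.6, 1.71, 0.01 and 2.04 in Homo (-0.92 ± 0.40). Col13a1 was at 0.42, 1.25, 1.49 and 0 in Het and at 0.33, 0, 0.01 and 0 in Homo (-0.71 ± 0.34). Col3a1 was at 7.89, 7.74, 7.46 and 7.42, Col5a1 at 5.03, 4.91, 4.57 and 4.73 and Col5a2 at 4.82, 5.12, 4.82 and 4.29 in Het. Without Homo 3 the fibrillar median was -0.22 and the basement membrane median -0.07, and the log2 fold change of Col15a1 turned from -0.80 to 0.105; without Homo 4 the fibrillar median was -1.16. The 4 collagens at an unadjusted p under 0.05 became 1 without Het 2, 7 without Het 4 and 9 without Homo 4.

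**Figure D4:**
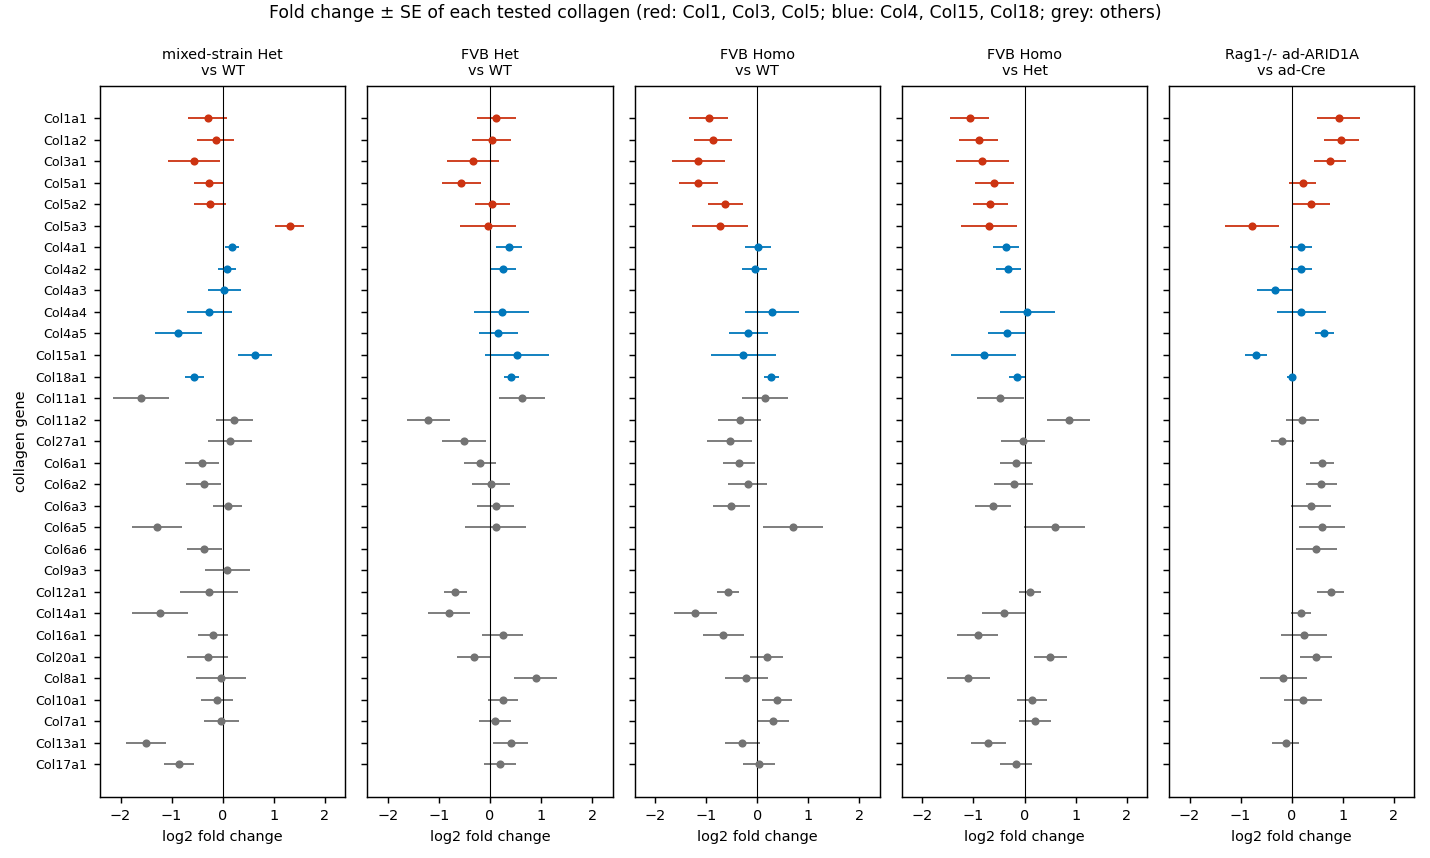
Points are log2 fold changes ± SE of each tested collagen in the 5 comparisons (first group named minus the second), red for Col1, Col3 and Col5, blue for Col4, Col15 and Col18 and grey for the others; a gap marks a gene not tested in that table. The 6 fibrillar genes lay left of 0 in both comparisons of Homo tumors, and 5 of 6 lay right of 0 in ad-ARID1A livers.

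In the Rag1-/- livers the type I and III genes and type VI genes had higher means 14 days after ad-ARID1A than after ad-Cre, and none passed. No collagen of 27 reached an adjusted p under 0.05 (limma, Benjamini-Hochberg over 14074 genes, of which 0.32% passed). At an unadjusted p under 0.05 there were 6, 5 higher and 1 lower (22.2%, against 12.5% of all genes). Groups without overlap were seen for 4 collagens, Col4a5, Col12a1 and Col6a1 higher and Col15a1 lower, which is 14.8% of 27 against 17.4% of all genes, a share near the background. The fibrillar class had 5 of 6 members higher with a median log2 fold change of 0.56, the beaded filaments 5 of 5 with 0.58, and the basement membrane class 4 of 7 with 0.18, beside 0.09 over all genes. Of all 14074 genes tested, 9297 were higher after ad-ARID1A, so counts of higher members stand beside that share. Centring each library on its median moved the median of all genes from 0.09 to -0.01, and those of the fibrillar and basement membrane classes to 0.46 and 0.08. Leaving out 1 liver moved the fibrillar median to 0.98 (ad-Cre 1), 0.27 (ad-Cre 3) and 0.35 (ad-ARID1A 3), and the basement membrane median to 0.28 (ad-Cre 1), 0.03 (ad-Cre 2), 0.02 (ad-Cre 3) and -0.01 (ad-ARID1A 3). The 6 collagens at an unadjusted p under 0.05 became 13 without ad-Cre 1 and 3 without ad-Cre 2.

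Col1a1 stood at 5.76, 4.10 and 3.85 with ad-Cre and at 5.21, 5.38 and 5.87 with ad-ARID1A (log2 CPM). Col1a2 stood at 5.59, 4.19 and 4.05 with ad-Cre and at 5.41, 5.43 and 5.90 with ad-ARID1A. Col3a1 stood at 7.10, 6.01 and 5.68 with ad-Cre and at 6.76, 6.88 and 7.39 with ad-ARID1A. In all 3 genes the ad-Cre 1 liver lay inside the ad-ARID1A range and the other ad-Cre livers lay below it. The log2 fold changes were 0.92 ± 0.42, 0.97 ± 0.34 and 0.75 ± 0.31 (SE, 3 against 3), with limma adjusted p of 0.404, 0.299 and 0.371. Without ad-Cre 1, Col1a1 (1.51) and Col1a2 (1.46) passed with limma adjusted p of 0.0412 and 0.0326, where 0.164% of all genes passed. Col5a1, at 4.94, 4.13 and 3.96 with ad-Cre and 4.60, 4.15 and 4.92 with ad-ARID1A, and Col5a2, at 3.63, 2.55 and 2.23 and at 2.61, 3.30 and 3.64, had ad-Cre 1 high in the same way. Col5a3 was the 1 fibrillar gene with a lower mean after ad-ARID1A, where the livers stood at 5.52, 5.53 and 3.31 against 6.09, 4.95 and 5.67.

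Col18a1 stood at 10.21, 10.36 and 10.23 with ad-Cre and at 10.23, 10.28 and 10.28 with ad-ARID1A, a log2 fold change of 0.00 ± 0.09 (SE). Col4a1 was at 6.59, 5.91 and 5.78 with ad-Cre and at 6.20, 6.0 and 6.62 with ad-ARID1A, and Col4a2 at 6.26, 5.47 and 5.66 and at 5.92, 5.76 and 6.28, so that both groups covered nearly the same range. Col4a5, an X-linked type IV chain, was at 2.73, 2.43 and 2.73 with ad-Cre and at 3.29, 3.25 and 3.25 with ad-ARID1A (0.63 ± 0.19, limma adjusted p = 0.203). Col15a1 was at 4.87, 4.42 and 4.22 with ad-Cre and at 4.0, 3.40 and 4.01 with ad-ARID1A (-0.70 ± 0.22, limma adjusted p = 0.23). These had groups that did not overlap, in opposite directions within the basement membrane class. Col12a1 was at 2.38, 1.5 and 1.96 with ad-Cre and at 2.76, 2.63 and 2.75 with ad-ARID1A (0.77 ± 0.27). Col6a1 was at 3.45, 2.66 and 3.14 with ad-Cre and at 3.60, 3.93 and 3.5 with ad-ARID1A (0.59 ± 0.23).

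Genes that fold, cut, crosslink, bind or degrade collagen were followed through 7 lists, and no gene of these lists passed in any of the 5 comparisons. In mixed-strain tumors 14 of 20 folding and modification genes were lower in Het, among them Serpinh1, the collagen chaperone (-0.86 ± 0.24, limma adjusted p = 0.137). Of 12 fibril-associated proteins 10 were lower (median -0.62), and of 16 basement membrane partners (laminins, nidogens, perlecan, agrin and peroxidasin) 12 were higher (median 0.28), with Lamc3, a laminin chain, at 2.01 ± 0.46 (limma adjusted p = 0.0869). Prelp, a small leucine-rich proteoglycan, was at -2.53 ± 0.60 (limma adjusted p = 0.092). Of the processing and crosslinking genes 6 of 11 were lower, of the receptors 7 of 10, of the degradation genes 7 of 10 and of the TGF-β ligands and targets 8 of 10, with medians of -0.02, -0.11, -0.04 and -0.17.

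In FVB Homo against WT tumors Lox, the lysyl oxidase that crosslinks fibrillar collagen, had the opposite sign to the 6 fibrillar genes. It was higher in all 4 Homo tumors than in any WT tumor, with a log2 fold change of 1.41 ± 0.28 (SE) and a limma adjusted p of 0.104, and it was at 0.79 ± 0.28 in Het against WT. Its group means were 3.53 in WT, 4.31 in Het and 4.93 in Homo. It was the 1 gene of 11 on its list whose groups did not overlap between Homo and WT, against 4.07% of all genes. Of the fibril-associated proteins 10 of 12 were lower in Homo than WT (median -0.33) and 8 of 12 in Het (-0.35). Of the basement membrane partners 10 of 15 were higher in Het than WT (median 0.36) and 6 of 15 in Homo (-0.07). The folding list was split in both, with 10 and 11 of 19 higher. Of the processing genes 8 and 7 of 11 were lower in Het and Homo than in WT (medians -0.25 and -0.09), of the receptors 7 and 8 of 10 (-0.24 and -0.16), of the degradation genes 5 and 3 of 8 (-0.20 and 0.19) and of the TGF-β genes 8 and 6 of 10 (-0.09 and -0.05). Tgfbi, a matrix protein that TGF-β induces, was at -1.01 ± 0.31 and P3h1, a prolyl 3-hydroxylase, at 0.63 ± 0.21 in Het against WT (limma adjusted p 0.169 and 0.2), and Tgfb2 at -1.13 ± 0.34 in Homo against WT (0.279). Colgalt2, which adds sugars to collagen, was at 1.87 ± 0.46 and Loxl4 at 0.67 ± 0.24 in Homo against Het, both without overlap and with a limma adjusted p of 1. Each was the 1 gene of its list without overlap between Homo and Het (of 19 and of 11), against 2.67% of all genes. Against Het, Homo tumors had medians between -0.24 and 0.11 over the 7 lists.

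In the livers 13 of 15 basement membrane partners were higher after ad-ARID1A (median 0.25), with Nid1 at 0.61 ± 0.14 (SE). Of the fibril-associated proteins 9 of 11 were higher (median 0.44), with Dcn and Bgn, small proteoglycans that bind fibrils, at 0.45 ± 0.12 and 0.44 ± 0.12. All 6 degradation genes tested were higher (median 0.43), and 7 of 8 TGF-β ligands and targets (0.30), 7 of 9 receptors (0.11), 7 of 11 processing genes (0.15) and 9 of 15 folding genes (0.04). Over all genes tested, 9297 of 14074 were higher (median 0.09), and the processing and folding counts lay near that share. Mia3, which helps load procollagen into transport vesicles, was at 0.37 ± 0.07 with a limma adjusted p of 0.0795.

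Markers of the cells that can make collagen were counted beside these results. In whole tissue, fewer cells of a type and less RNA per cell cannot be told apart. Over all genes tested, 43.9% were lower in mixed-strain Het, 47% in FVB Het and 52.9% in FVB Homo tumors against WT. The share lower was 58.1% in FVB Homo against Het and 33.7% in ad-ARID1A livers. Stellate cell markers were lower in 10 of 12 genes in mixed-strain Het tumors (median -0.99), in 10 of 10 in FVB Het (-0.77) and in 10 of 10 in FVB Homo tumors (-0.60) against WT, and were higher in 9 of 12 in ad-ARID1A livers (0.32). Lrat passed in FVB Het against WT at -2.50 ± 0.31 (limma adjusted p = 0.0234), and it was the 1 stellate marker to pass anywhere. The summed level of that list was 62.4 to 578 CPM in mixed-strain WT and 72.5 to 301 in Het, 139 to 211 in FVB WT, 88.2 to 129 in Het and 60.4 to 182 in Homo, and 278 to 390 with ad-Cre and 367 to 432 with ad-ARID1A, with Ngfr at 0 in all FVB Het tumors. The part of these markers in the collagen values was not tested.

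Myofibroblast and fibroblast markers were lower in 7 of 9 genes in FVB Homo against WT (median -0.42) and in 8 of 9 against Het (-0.51). There Acta2, the smooth muscle actin of activated stellate cells, was lower in every Homo than in every Het tumor (-1.44 ± 0.42, SE). It was 1 of 2 genes of these 9 without overlap between Homo and Het, against 2.67% of all genes. The sums of the list were 109 to 194 CPM in WT, 112 to 130 in Het and 74.1 to 130 in Homo. In FVB Het against WT 5 of 9 were higher (0.12). In mixed-strain Het tumors 5 of 9 were higher (0.13), with sums of 111 to 312 CPM in WT and 113 to 363 in Het. In the livers 6 of 7 were higher after ad-ARID1A (0.19), with sums of 33.2 to 55.1 CPM for ad-Cre and 40.8 to 52.8 for ad-ARID1A. Of the 10 genes on this list, 9 were listed for the FVB tumors and 7 for the livers. None of the listed genes was at 0 throughout a group, and the level of those not listed is unknown. Their part in the fibrillar values was not tested.

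Endothelial markers, of a cell type that makes type IV collagen, were lower in 10 of 14 genes in mixed-strain Het (median -0.79), in 12 of 14 in FVB Het (-0.51) and in 12 of 14 in FVB Homo (-0.52) against WT, and higher in 13 of 14 in ad-ARID1A livers (0.28). Their sums were 257 to 740 CPM in mixed-strain WT and 172 to 513 in Het, 174 to 398 in FVB WT, 142 to 232 in Het and 163 to 240 in Homo, and 501 to 584 with ad-Cre and 598 to 644 with ad-ARID1A. Hepatocyte markers were lower in 10 of 10 genes in mixed-strain Het (-0.35) and higher in 6 of 10 in FVB Het (0.05) and 8 of 10 in FVB Homo (0.28). In ad-ARID1A livers 8 of 10 were lower (-0.11). The log2 fold changes of Col18a1 there were -0.56, 0.42, 0.275 and -0.0033, in that order. Macrophage markers were lower in 7 of 8 genes in mixed-strain Het (-1.36), where Cd163 passed (-2.25 ± 0.41, limma adjusted p = 0.032), in 5 of 8 in FVB Het (-0.10), 7 of 8 in Homo (-0.40) and 5 of 8 in ad-ARID1A livers (-0.08). Biliary markers had medians of 0.09, 0.41, -0.52 and 0.54 in these 4 comparisons (7, 5, 5 and 3 genes tested). Mesothelial markers had medians of -0.04, 0.10, 0.36 and 0.14 (3, 1, 1 and 3 genes). Those of erythroid markers were -0.90, -2.01, -1.07 and -0.12 (7, 7, 7 and 3 genes). Between Homo and Het the medians were -0.03 for stellate, 0.00 for endothelial, 0.26 for hepatocyte, -0.06 for macrophage, -0.61 for biliary, 0.27 for mesothelial (1 gene) and 0.50 for erythroid markers. In FVB Het tumors Hba-a2 and Epb42 were at 0, as Hba-a2 was in Homo and Gpm6a, the 1 mesothelial gene listed there, in WT. Their part in any collagen value was not tested.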

How the data were processed

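RNA of 34 frozen tumors and livers was sequenced from Nugen libraries, per the labels' protocols. Per the submitters' processing notes, reads were handled with HISAT2, featureCounts, Trim Galore and SAMtools on GRCm38 (mm10), without versions. The authors deposited 3 gene tables of log2 values. The mixed-strain table is named for RPKM, but its values, undone as powers of 2 minus 1, sum in each library to the total that CPM has and were used as CPM. The FVB and Rag1-/- tables hold log2 CPM with values at or below 1 CPM listed at 0. Whole reads were recovered from the steps of low values (100% whole within 0.1 reads), which gave the depths.

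Each table was tested separately with limma 3.58.1 (R 4.3.3) with a trend, on log2(CPM + 0.5) for genes of mean CPM of at least 0.5 in the mixed-strain table and on the deposited values in the others, with all 12 FVB tumors in 1 fit. P-values were adjusted over all genes by Benjamini-Hochberg. The script was tested on simulated data. Levels per kilobase used the longest principal transcript (GENCODE vM21). Correlations used 100000 resamples (scipy 1.17.1, Python 3.11.15). Collagens with fixed names, the 5 with the smallest p in each comparison and the 2 related genes with the smallest p were named; Serpinh1, Dcn, Bgn, Acta2 and Col5a3 in FVB tumors were chosen after their values were seen. The members and lists were chosen with earlier results of these data known. The alternatives were other pseudocounts and filters, median centring, array weights, a replicate block and leaving out libraries.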

Additional observations from a re-analysis of the deposited data

Results flagged for a closer look

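In a group of 4 to 10 libraries, a value was marked where the gap of the highest or lowest library to its neighbour took more of the group's range than Dixon's 95% limit allows. Of 100 groups of collagen values tested, 4 were marked, and chance marks about 1 in 20. Col3a1 in mixed-strain WT tumor 6 stood at 5.73 log2(CPM + 0.5), where the other 7 ranged from 7.39 to 8.74. Col4a1 in mixed-strain Het tumor 5 stood at 9.69, above the 8.81 to 9.21 of the others. Col15a1 in FVB Homo tumor 3 stood at 1.39 log2 CPM, below the 4.66 to 5.33 of the others. Col13a1 in FVB Homo tumor 1 stood at 0.33 log2 CPM, where the others were listed at 0 to 0.01, a level near the lower end of the scale.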

How the results depend on the processing

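Over 91 alternative settings of the 5 comparisons, 83 called no collagen and 8 called at least 1. In mixed-strain Het against WT the number called was 1 with array weights (Col5a3; 0.575% of all genes passed) and 0 to 1 when single tumors were left out. In FVB Het against WT it was 4 of 28 with array weights, where 14.2% of all genes passed, and 0 to 1 when single tumors were left out (1 without Het 4, with 1.12% of all genes). In the livers it was 0 to 2 when single livers were left out, and the median of the basement membrane class ran from -0.012 to 0.277 and that of the fibrillar class from 0.274 to 0.979 there; the cause was not tested. Collagens at an unadjusted p under 0.05 numbered 5 to 9 over the alternatives in mixed-strain Het against WT, 0 to 7 in FVB Het against WT, 0 to 9 in FVB Homo against WT, 1 to 9 in FVB Homo against Het and 3 to 13 in the livers. The relation of Col15a1 to Col1a1 had r = 0.427 without WT 2 and Het 5, a setting chosen after seeing the data. With the union of all exons as length, also chosen after seeing the data, the Col4a1 share of collagen was 17.6% in mixed-strain WT, 23.1% in FVB Het, 20.0% in FVB WT, 3.65% with ad-Cre and 3.95% with ad-ARID1A. Depth limits the low collagens most, since 13 of 44 were under the mean of 0.5 CPM in the mixed-strain tumors.

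With the replicate number as a block, 0 collagens passed in each of the 5 comparisons. Same-numbered libraries did not deviate together in every pair. Correlations were -0.118 to 0.242 in the mixed-strain tumors, -0.2 to 0.278 in the FVB tumors and -0.057 to 0.045 in the livers. Such correlations cannot show whether same-numbered libraries share more than a number. Over all genes the block called 75 in mixed-strain tumors against 28 without it, 0 in FVB Het against WT where 4 were called without it, 1 in FVB Homo against WT where 7 were, and 59 in the livers against 45.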
